A study of Mus musculus and Homo sapiens with 22 samples.

Results

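FLAG-tagged Prox1 was mapped by CUT&RUN in mouse embryonic fibroblasts (MEFs), and the peak list from these cells held 40531 of the 105059 peaks in the 3 lists of the series. Every peak of the MEF list was taken. Peaks were ranked by the −log10 p-value at the summit, the base of highest significance within a peak. The study also profiled liver and Hep3B cells, which are not described here. CUT&RUN cuts DNA around an antibody-bound protein with a tethered nuclease and sequences the released fragments.

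The MEFs came from E13.5 embryos of wild-type C57BL/6N mice. They were transduced with lentiviruses carrying FUW-rtTA and tetO-FLAG-mmProx1, and doxycycline was given for 2 days. Nuclei were then profiled with a rabbit FLAG antibody (3 samples) or with rabbit IgG (3 samples). Cells of both groups carried the same induced transgene, and no untransduced cells were analysed here. The methods describe cultures started from the distal limbs of several embryos together, so the cells are of limb origin. The tagged protein was made from a doxycycline-controlled transgene and not from the Prox1 gene itself. The list pools the 3 FLAG samples, so no value below has a replicate error and no p-value was computed. The depth of each sample is unknown from the list, and the IgG level at each peak was not analysed here. No expression was measured in these files, so the label of the cells could not be checked against fibroblast transcripts.

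PROX1 is a homeodomain transcription factor required for hepatocytes, lymphatic endothelium and other lineages, and it can recruit histone deacetylase and NuRD corepressors. The endogenous Prox1 gene (chr1:190118035-190170714, minus strand, GRCm38/mm10) had no peak over its body, and none of its 9 annotated exon intervals met a peak. The nearest summit lay 196186 bp from its start.

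To show what the summits look like, examples from among the stronger peaks that hold a short motif are printed as windows reaching 50 bp to either side of the summit, on the plus strand of GRCm38/mm10, with the matching letters in capitals. Windows that touch an annotated untranslated region were passed over, as were some other strong peaks, so these are examples and not a ranking. Away from promoters, the motifs shown are AP-1 (TGANTCA, bound by FOS and JUN dimers), TEAD (GGAATG, the partner of YAP) and CTCF (CCACTAG, from the core site of the architectural factor). The windows are chr11:88969112-88969212 and chr15:73067640-73067740 for AP-1, chr17:79841000-79841100 for TEAD, and chr3:97338950-97339050 and chr2:152197372-152197472 for CTCF. None of these summits lies in an annotated exon. They were 1090 bp from the start of Coil, 6486 bp from Trappc9, 11705 bp from Atl2, 41083 bp from the nearest annotated start of Bcl9 and 29417 bp from Csnk2a1, the nearest protein-coding gene (a pseudogene, Rps15a-ps7, started 11740 bp away), with −log10 p-values of 15.6, 11.03, 10.4, 9.61 and 9.46.
AP-1, near Coil: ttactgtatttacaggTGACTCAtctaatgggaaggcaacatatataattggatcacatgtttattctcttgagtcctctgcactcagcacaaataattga
AP-1, near Trappc9: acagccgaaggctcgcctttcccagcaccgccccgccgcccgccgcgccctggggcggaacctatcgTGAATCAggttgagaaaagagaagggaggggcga
TEAD, near Atl2: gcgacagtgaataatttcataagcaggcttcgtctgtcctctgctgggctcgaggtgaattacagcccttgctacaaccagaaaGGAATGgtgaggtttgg
CTCF, between Bcl9 and Olfr1402: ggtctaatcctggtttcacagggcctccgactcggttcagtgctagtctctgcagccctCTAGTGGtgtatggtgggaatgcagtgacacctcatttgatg
CTCF, near Csnk2a1: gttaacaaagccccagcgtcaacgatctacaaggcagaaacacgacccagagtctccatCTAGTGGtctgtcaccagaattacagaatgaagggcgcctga

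At promoters, the motifs shown are NRF1 (GCATGCGC), NF-Y (ATTGG), ETS (CCGGAA) and ZBTB33 (CTCGCGAG), which are common in the promoters of widely used genes. The word AAGACG is one arm of the consensus listed for PROX1. The windows are chr2:166996325-166996425, chr17:25920096-25920196, chr7:99141251-99141351, chr7:25268182-25268282, chr9:108049078-108049178 and chr9:106476957-106477057, in the order of the lines. Their summits lay 76 bp from the start of Stau1, an RNA-binding protein of mRNA transport, 419 bp from Rab40c, 160 bp from Uvrag, an autophagy factor, 155 bp from Cic, a repressor, 114 bp from Gmppb, a sugar nucleotide enzyme, and 58 bp from Parp3, of the DNA damage response. The Cic summit lay inside Cic and the Parp3 summit inside the neighbouring gene Rrp9, neither in an exon.
NRF1, Stau1: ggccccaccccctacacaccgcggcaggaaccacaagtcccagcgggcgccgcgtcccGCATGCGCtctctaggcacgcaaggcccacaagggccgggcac
NF-Y, Rab40c: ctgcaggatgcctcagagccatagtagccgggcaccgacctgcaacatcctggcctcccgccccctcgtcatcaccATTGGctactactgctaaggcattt
NF-Y, Uvrag: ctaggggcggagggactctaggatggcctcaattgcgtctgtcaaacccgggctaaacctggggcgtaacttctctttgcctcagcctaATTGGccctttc
ETS, Cic: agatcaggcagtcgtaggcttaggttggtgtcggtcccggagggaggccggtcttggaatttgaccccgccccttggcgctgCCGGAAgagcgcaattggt
ZBTB33, Gmppb: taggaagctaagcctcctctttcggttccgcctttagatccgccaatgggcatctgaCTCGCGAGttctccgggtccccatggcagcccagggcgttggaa
AAGACG, Parp3: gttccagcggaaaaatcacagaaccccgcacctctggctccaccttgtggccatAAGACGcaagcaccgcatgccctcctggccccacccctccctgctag

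The list was made of a sharp group at transcription start sites and a broad group between them. A promoter peak is one whose summit lies within 1 kb of any annotated start. Of the 15339 promoter summits, 49.4% lay within 100 bp of a start and 67.8% within 200 bp. They fell on the upstream side in 62.8% and on the downstream side in 36.4%. The bin from 100 bp upstream to the start held 5135 summits, against 2425 in the first 100 bp downstream. Promoter peaks were wider than the others, with a median of 926 bp (quartiles 629 to 1314) against 548.5 bp (413 to 742). Their median area, the summed significance over a peak, was 771 against 337. Median GC over 201 bp at the summit was 62.7% at promoters and 48.8% elsewhere.

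**Figure D1:**
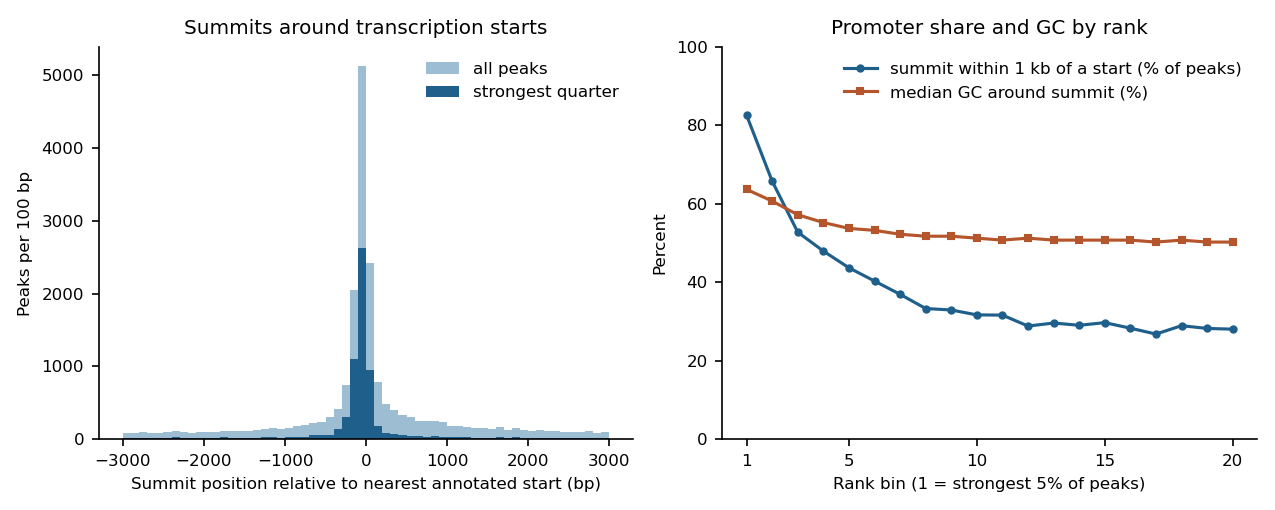
Left, number of summits per 100 bp by distance to the nearest annotated start, negative upstream, for all peaks (light) and the strongest 25% (dark). Right, share of peaks with a summit within 1 kb of a start and median GC in 20 rank bins of 5% each. The promoter share falls from 82.6% in the first bin to 28.0% in the last, and median GC from 63.7% to 50.2%.

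The strongest peaks sat at promoters. Of the 100 strongest, 92 were promoter peaks (95% Wilson interval 85.0 to 95.9%), and of the 1000 strongest 880 were (85.8 to 89.9%). These and later intervals cover counting error only. The first 5% of the ranking had 82.6% promoter peaks and the second 65.8%, and from the eighth bin on the share stayed between 26.8 and 33.3%. The decline was steep at the top of the ranking and flat below.

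Among the 10 highest peaks, 7 had a summit within 1 kb of a protein-coding start. The first (chr1:88275771-88278616, −log10 p 15.7) lay 25 bp from the start of Hjurp, the chaperone that loads the centromeric histone CENP-A. Its summit was also 3 bp from an annotated start of Trpm8. The peak at Hspa2, a heat shock protein of the HSP70 family, had a −log10 p of 12.1 (chr12:76403108-76404772). Gatad2a, a NuRD subunit, ranked 8 with 12.0 (chr8:69995284-69997306). Rab40c, which encodes a substrate adaptor of a ubiquitin ligase, followed at 12.0, with its summit 419 bp from the start. Izumo4, whose family is known from sperm, was the tenth with 11.8. Garnl3 and Dazap2 had 12.3 and 12.2. The 3 others lay 1090 bp from Coil, 4701 bp from Mroh2a and 30391 bp from Gm21060, and the summit near Coil fell in a soft-masked repeat.

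Of all peaks, 12669 (31.3%) lay over 10 kb from any start, and 788 (1.94%) over 100 kb. For those over 10 kb away, the median −log10 p was 5.75, against 5.74 for all peaks outside promoters and 6.54 for promoter peaks. The strongest summit over 10 kb from a start reached a −log10 p of 11.4 at rank 27, in Foxk1 (chr5:142439472-142441237), which encodes a forkhead factor. The next 4 were in Creb3l1 (10.5), 11705 bp from Atl2 (10.4), 14367 bp from Ccne1 (10.4), the cyclin of the G1 to S transition, and in Nr1h4 (10.4), which encodes the bile acid receptor FXR. The Nr1h4 summit was 18019 bp from the start of Gas2l3. Of the summits outside promoters, 55.9% lay inside an annotated gene and 5.49% in an exon.

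The 5 widest peaks lay at Junb, Foxo3, Hes1, Ahnak and Id3. The widest spanned 5705 bp (chr8:84975046-84980750) beside Junb, an AP-1 subunit, with its summit 1219 bp from the start. The next spanned 5557 bp at Foxo3, a forkhead factor of the insulin response. The third covered 5376 bp at Hes1, the Notch-induced repressor, with its summit 116 bp from the start. Peaks of 5334 bp at Ahnak and 4897 bp near Id3, an inhibitor of bHLH factors, completed the first 5. The Junb peak was wide but ranked only 10412 by p-value, whereas the Hes1 peak ranked 605.

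Of 21853 protein-coding genes, 55.4% had a summit within 1 kb of a start. This share is the background for the gene groups. It differed by sequence class: of 10940 genes with a CpG-rich start, 89.1% (88.5 to 89.6%) had a promoter summit, and of 10913 genes without one, 21.6% (20.8 to 22.4%). A start was called CpG-rich when GC was at least 50% and the observed to expected CpG ratio at least 0.6 over 1001 bp. Divergent genes, whose starts face away from each other within 1 kb, were bound in 92.1% of 2156 cases, and in 994 of 1096 pairs both were. A single summit between such starts counts for both genes, so the joint count follows in part from the definitions. One such summit, at rank 842, served Mrpl47 and Ndufb5, of the mitochondrial ribosome and complex I. Over the 892 genes of the 31 function lists, each counted once, 85.2% were bound, and 712 of the 892 had a CpG-rich start.

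Genes of the basic cell machinery carried promoter peaks almost throughout, against 55.4% of all protein-coding genes. All 34 pre-mRNA splicing genes, 35 translation factors, 31 proteasome subunits, 20 tRNA synthetases, 28 vesicle transport genes and 25 DNA repair genes had one. The strongest were Prpf8, the core spliceosome scaffold (−log10 p 10.3, chr11:75486320-75487052), and Eif5a, an elongation factor (10.1). For the proteasome, the ATPase subunit Psmc4 led with 9.69. Ercc1, a nucleotide excision repair nuclease subunit, had 10.4 and Brca1 had 10.1 with its summit 779 bp from the start. Among the tRNA synthetases the highest was Yars at 8.16, and none of the 20 was in the 1000 strongest peaks. CpG-rich starts, a class bound in 89.1%, made up 34 of 34 splicing, 35 of 35 translation and 30 of 31 proteasome genes. They made up 17 of 20 tRNA synthetases, 25 of 28 vesicle transport and 23 of 25 DNA repair genes.

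Proliferation genes gave the same picture with single exceptions. CpG-rich starts, a class bound in 89.1%, made up 31 of 36 replication, 33 of 37 cell cycle and 25 of 25 spindle genes. They made up 27 of 28 chaperones and 23 of 25 nuclear pore genes. DNA replication genes were bound in 35 of 36, led by Pold1, the catalytic subunit of polymerase delta (9.90). The exception was Pola1 on the X chromosome, whose nearest summit was 257811 bp away. Cell cycle genes were bound in 36 of 37, with E2f3, a factor that drives S phase genes, at rank 60 (11.02, 4556 bp wide, chr13:29982922-29987477). Tfdp1 was the member without a promoter summit, the nearest being 1996 bp away. Of 25 spindle and kinetochore genes 24 were bound, Mad2l1 of the spindle checkpoint most strongly (10.2), and Cenpe was not. Chaperones were bound in 27 of 28, with Hspa8 at 10.2. The exception, Hspa1b, has a near-identical neighbour. Reads of such copies may be lost at the alignment quality limit, and the part of this here was not tested. Of 25 nuclear pore genes only Nup160 lacked a promoter summit, and it had one 2137 bp downstream.

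Chromatin regulators were bound in full. All 21 NuRD and histone deacetylase corepressor genes had a promoter peak, headed by Gatad2a (12.0), Mbd3 (10.4), which joins NuRD, and Rcor1 (9.72), a partner of LSD1. All 24 polycomb genes had one as well, headed by Cbx8 (10.3), a reader of H3K27 methylation, and Kdm2b (9.59), which recruits the complex to CpG islands. Of the starts in these lists, 20 of 21 and 24 of 24 were CpG-rich, a class bound in 89.1%. In the transcription machinery 34 of 35 genes were bound, all but Gtf2b, and 31 of the 35 had a CpG-rich start.

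**Figure D2:**
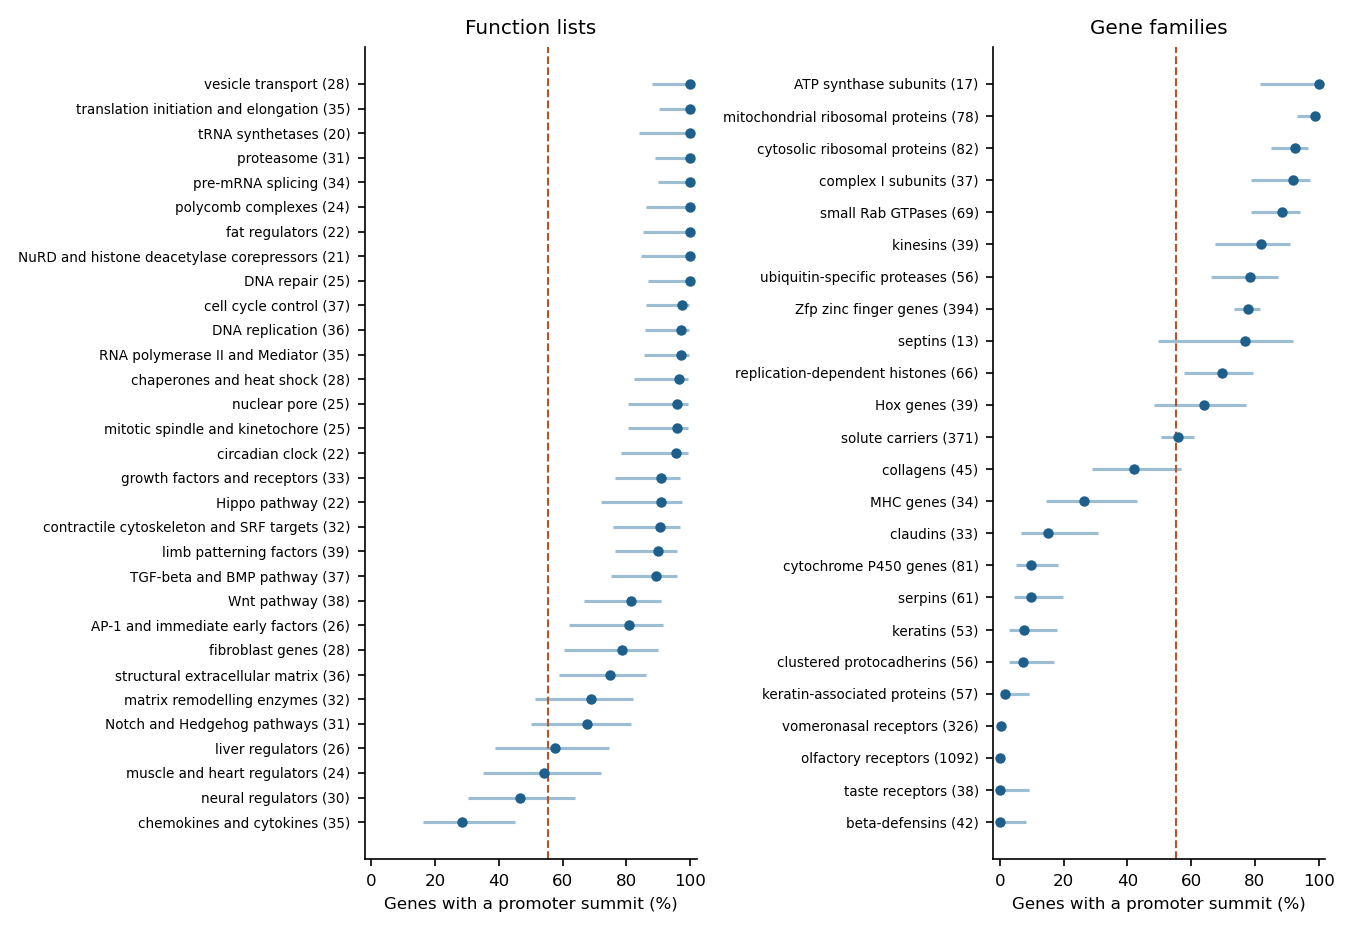
Share of genes with a promoter summit in 31 function lists and 24 gene families, with 95% Wilson intervals and the number of genes in parentheses. The dashed line is the share over all protein-coding genes, 55.4%. Shares run from 100% for several basic lists to 28.6% for chemokines and cytokines, and from 100% for ATP synthase subunits to 0.00% for taste receptors and beta-defensins.

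In the list of genes that characterise fibroblasts 22 of 28 had a promoter peak (78.6%, 60.5 to 89.8%), against 55.4% of all protein-coding genes. The strongest were Pdgfra, the PDGF receptor of mesenchyme (8.77, chr5:75155595-75157319), Nfib (8.04) and Ebf2 (8.04). Fap, Tcf21, Dpt, Pi16 and Cd34 had none, and their nearest summits lay from 5409 bp (Pi16) to 102525 bp (Dpt) away. All 13 members with a CpG-rich start were bound, in a class bound in 89.1%, and 9 of 15 without one, in a class bound in 21.6%. Prrx1, a limb mesenchyme factor, had its peak 901 bp from the start with a −log10 p of 6.62.

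Matrix genes were intermediate. Of 36 structural matrix genes 27 were bound, with Lamc1 (8.88), Col1a1 (8.86) and Col5a1 (8.56) first. The Col1a1 peak was 3774 bp wide with its summit 906 bp inside the gene (chr11:94935989-94939762). Members without a promoter summit included Col6a3, Col11a1, Col15a1, Eln and Lum. Lum, a proteoglycan of collagen fibrils, had no summit within 50 kb. Matrix remodelling enzymes were bound in 22 of 32, with Mmp11 (8.19), Adamts1 (8.18) and Serpinh1 (7.93), the collagen chaperone. Mmp3, Mmp10 and Mmp13, neighbours in a protease gene cluster, and Loxl2 had none within 50 kb. With a CpG-rich start, 11 of 12 structural genes and 14 of 16 remodelling enzymes were bound, in a class bound in 89.1%. Without one, 16 of 24 and 8 of 16 were, in a class bound in 21.6%. Genes with the collagen prefix Col were bound in 19 of 45, against 55.4% of all protein-coding genes. This count includes Col4a3bp, which does not encode a collagen.

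The contractile list gave some of the strongest peaks. It was bound in 29 of 32, with Myh9, nonmuscle myosin heavy chain, at rank 13 (11.7, chr15:77841036-77843233), Vcl, the focal adhesion protein vinculin, at rank 74 (10.9), and Zyx at rank 150 (10.4). There were 19 summits within 50 kb of the starts of Myh9. The smooth muscle genes Actg2, Tagln and Cnn1 had no promoter summit, and their nearest summits were 20834, 2590 and 2999 bp away. All 24 contractile members with a CpG-rich start were bound, in a class bound in 89.1%. Without one, 5 of 8 were, in a class bound in 21.6%.

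Signalling lists were bound in most members, against 55.4% of all protein-coding genes and 89.1% of those with a CpG-rich start. Of members with a CpG-rich start, 31 of 33 were bound for TGF-beta and BMP, and 27 of 33 for Wnt. The counts were 17 of 23 for Notch and Hedgehog, 24 of 26 for growth factors and receptors and 19 of 19 for Hippo. The TGF-beta and BMP list had 33 of 37, including Smurf1 (9.50), Id4 (9.27) and Smad2 (9.13). Smad6, an inhibitory SMAD, counted as unbound because its summit, with a −log10 p of 9.13, lay 1072 bp upstream, although the peak covered the start. The Wnt list had 31 of 38, with Gsk3b (9.93), Fzd4 (9.41) and Axin1 (9.08). Fzd8 was similar to Smad6, with a summit of 8.80 at 1317 bp. In the Notch and Hedgehog list 21 of 31 were bound, with Hes1 (9.73), Notch1 (9.02) and Hey1 (8.82). Sufu, a brake on Hedgehog signalling, had a peak at rank 209 (10.4) whose summit was 1673 bp upstream. Notch4, Dll1, Shh and Dhh had no promoter summit. Growth factors and receptors were bound in 30 of 33, Vegfa most strongly (9.16), and the Hippo list in 20 of 22, with Nf2 at 9.56.

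Of 26 AP-1 and immediate early genes 21 had a promoter summit (80.8%, 62.1 to 91.5%). All 26 had a CpG-rich start, a class bound in 89.1%. The strongest were Klf10 (9.86, 4490 bp wide), Atf3 (9.83) and Fosb (9.66). The 5 others were Jun, Junb, Egr3, Ier2 and Ier3, with nearest summits 1129, 1219, 2182, 1113 and 1396 bp from a start. A peak covered a start in each of these except Egr3. The Jun peak (chr4:95049307-95054154) was 4848 bp wide with a −log10 p of 8.55. Over all lists, 132 of 892 genes had no promoter summit. Of these, 10 had a start inside a peak, 44 had a summit within 5 kb and 21 had none within 50 kb.

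Lists of lineage regulators of other tissues ranged from 14 of 30 (neural) to 22 of 22 (fat), against 55.4% of all protein-coding genes. Muscle and heart regulators were bound in 13 of 24, with Mef2d (10.2) and Srf (9.38), which are broadly used, at the top. Myod1, Myog, Myf5, Myf6 and Pax7 had no promoter summit. Neural regulators were bound in 14 of 30, with Sox11 (9.33), Lhx3 (7.66) and Pou3f3 (7.26). With a CpG-rich start, 12 of 21 neural and 10 of 16 muscle and heart regulators were bound. For liver and fat regulators these counts were 14 of 17 and 19 of 19. The share over all CpG-rich genes was 89.1%. Liver regulators were bound in 15 of 26, with Foxa3 (9.49), Xbp1 (8.98) and Ppara (8.90). Hnf4a, Hnf4g and Nr1h4 were among the unbound. Fat regulators were bound in all 22 (18 with a window of 500 bp), headed by Srebf1 (10.4), and Pparg, the adipocyte receptor, had 5.74. Chemokines and cytokines had the lowest share of the lists, 10 of 35, with Csf1 (8.05) and Cxcl12 (7.48) first, and only 4 of the 35 had a CpG-rich start.

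Of the other genes the study followed, Map2, a neuronal microtubule protein, had a promoter peak of 8.01, Sox9, the cartilage factor, 7.24, and Myc 7.11. Hand2, a limb and heart factor, had its nearest summit 1004 bp downstream of a start (4.30) and its strongest within 50 kb 7678 bp away (6.42). Circadian genes were bound in 21 of 22, with Per1 (10.1) and Nr1d1 (9.66) first and Nfil3, with a summit 1947 bp upstream, as the exception. Of the 22, 19 had a CpG-rich start, a class bound in 89.1%.

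Gene families lay at both ends, against 55.4% of all protein-coding genes. Mitochondrial ribosomal proteins were bound in 77 of 78, all but Mrpl3, and ATP synthase subunits in 17 of 17. Cytosolic ribosomal proteins were bound in 76 of 82. The 6 others were Rps28, the X-linked Rps4x, Rps27rt and the variant genes Rpl10l, Rpl39l and Rpl3l. Complex I subunits were bound in 34 of 37. Zfp zinc finger genes were bound in 307 of 394. At the other end were olfactory receptors with 2 of 1092, vomeronasal receptors with 1 of 326, keratin-associated proteins with 1 of 57, and taste receptors (0 of 38) and beta-defensins (0 of 42). The upper 95% Wilson bounds of these last shares were 9.19% and 8.38%. Serpins (6 of 61), claudins (5 of 33) and cytochrome P450 genes (8 of 81) were also low. CpG-rich starts, a class bound in 89.1%, made up 68 of 78 mitochondrial ribosomal, 73 of 82 cytosolic ribosomal and 15 of 17 ATP synthase genes. They made up 0 of 1092 olfactory receptors, 1 of 326 vomeronasal receptors and 0 of 57 keratin-associated proteins. The counts were 2 of 61 for serpins, 7 of 33 for claudins and 3 of 81 for cytochrome P450 genes. Genes without such a start were bound in 21.6%. Reads of near-identical family members may be lost in alignment, and the part of this in the low counts was not tested.

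Some summits gathered in runs. The functions of genes in the runs were not compared with those of all genes. Chaining summits no more than 5 kb apart gave 31557 runs. Of these, 25356 were single peaks and 273 held at least 5 summits, 1661 peaks in all (4.10%). Chaining at 2.5 or 12.5 kb gave 446 or 5786 such peaks, in 76 or 847 runs, and a q of at most 0.01 left 794. The runs of at least 5 spanned a median of 10180 bp and at most 49781 bp. Of them, 42 contained no promoter summit and 25 no protein-coding gene. Peaks in these runs had a lower median −log10 p than lone peaks, 5.48 against 6.07. Their median area was larger, 448 against 406, as was their median width, 766 against 628 bp.

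The longest run covered the Hoxa genes, which pattern the limb and body axis. It held 22 summits over 49781 bp (chr6:52204612-52254393), of which 13 were promoter summits. The strongest was at Hoxa9 (8.88), followed by Hoxa10 (8.03). The other summits ranged down to 4.10. The third run lay over Hoxd12 to Hoxd9, with 15 summits over 27446 bp, and its values were even, from 4.33 to 6.09. Hoxa and Hoxd were bound in 10 of 11 and 8 of 9 genes, Hoxb in 3 of 10 and Hoxc in 4 of 9. The Hox family was bound in 25 of 39 (64.1%, 48.4 to 77.3%), against 55.4% of all protein-coding genes. Of its members with a CpG-rich start 21 of 28 were bound, in a class bound in 89.1%. Summits per 100 kb were 24.7 in Hoxa, 20.7 in Hoxd, 9.50 in Hoxc and 6.32 in Hoxb, and 1.53 over the genome. Hoxd13, the most distal limb gene of its cluster, had a promoter peak of 8.46 outside the Hoxd run. It lay in a neighbouring run of 6 summits (chr2:74653104-74667973), which the 5 kb chaining limit kept separate. Limb patterning factors as a list were bound in 35 of 39, and Hoxc8, Pitx1, Alx4 and Hand2 were not. Of the 33 members with a CpG-rich start 29 were bound, in a class bound in 89.1%.

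The second run lay at Smad7, an inhibitor of TGF-beta signalling, with 16 summits over 24951 bp. Its strongest, 7.74, was at the promoter, and 12 summits were not near a start. The fourth held 12 summits at Bcl9l, a Wnt co-activator, with 9.19 at its first summit and 8.42 and 8.01 at its last summits. The fifth held 12 at Foxc1, a mesenchymal forkhead factor, with 8.94 at the promoter and 8.32 at the far end, in Gmds. Within it, 11 of the 12 summits were not near a start.

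**Figure D3:**
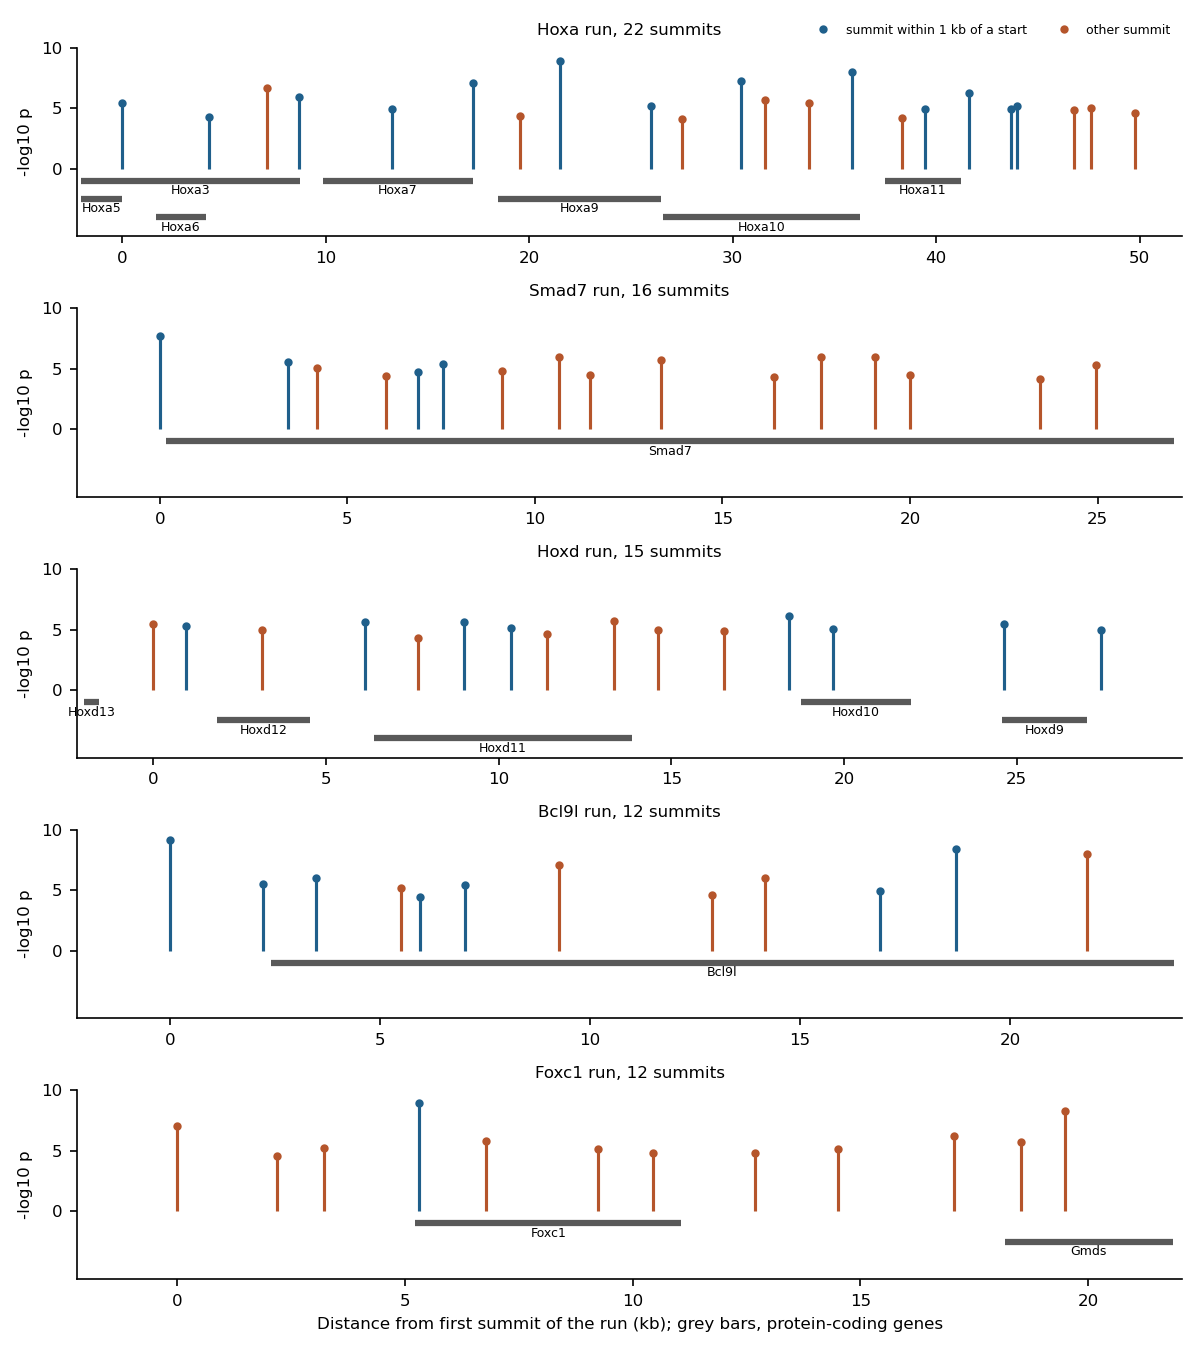
Summits in the 5 runs with the most summits, by distance from the first summit of the run (kb) and −log10 p; grey bars are protein-coding genes, without the readthrough model Gm28308. The Hoxa run has 22 summits with Hoxa9 highest at 8.88, while the 15 of the Hoxd run lie between 4.33 and 6.09.

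Counting summits from 10 kb before to 10 kb after each gene put long gene models first. Gm20388 (236 summits over 4434882 bp) and Fgfr2 (86 over 2960900 bp) are annotated with very long spans, and their densities were 5.30 and 2.89 per 100 kb of gene and flanks. Pde4d, a cAMP phosphodiesterase, followed with 38, Gse1 with 30, and 2010111I01Rik and Dnm3 with 28 each. Trio, a guanine exchange factor, Foxp1, a forkhead repressor, Gm42906 and Ins2 each had 25. The annotated Ins2 model was the densest of the 10, at 29.5 per 100 kb of model and flanks. The 64726 bp are the span of this model, and the summits in it were not assigned to the insulin gene itself. The median gene had 2 summits and 6208 genes had none.

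Motif shares differed between promoter summits and the rest. In all 20 motifs were searched, and not all of them are given here. AP-1 (TGANTCA) was found within 50 bp of 13.4% of the 25192 other summits (12.9 to 13.8%) and of 3.24% of promoter summits. Windows of the same length 500 bp away held it in 3.14% and 2.00%, so the ratio to the flank was 4.26 and 1.62. Over 10 kb from a start the share was 15.5%. TEAD (GGAATG) was found at 10.99% of other summits, 2.05 times its flank, and at 4.88% of promoter summits, 1.03 times. The bHLH word CAGCTG was close to this, at 9.50% of other summits, 1.98 times its flank, and 6.72% of promoter summits, 1.40 times. CTCF (CCACTAG) was found at 5.51% of other summits, 7.31 times its flank, and at 1.69% of promoter summits, 2.26 times. Matches were counted on both strands. Around all protein-coding starts, windows of this length held AP-1 in 1.90%, TEAD in 3.83% and CTCF in 0.784%.

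These motifs followed rank differently. Splitting the other summits into 3 equal parts by rank, CTCF was found in 8.00% of the strongest, 5.61% of the middle and 2.92% of the weakest. AP-1 was found in 13.9%, 15.4% and 10.8%, and in the last 5% of the whole ranking in 6.65% of other summits. In runs of at least 5 summits AP-1 was found at 6.53% of other summits (5.19 to 8.20%), and at lone peaks in 15.02% (14.5 to 15.6%).

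SP/KLF (GGGCGG) was found at 35.7% of promoter summits, 3.21 times its flank, and at 24.1% of all starts. Its promoter share was 50.8% in the strongest of 3 equal parts and 21.6% in the weakest. At promoter summits, ETS was found at 9.58% (3.04 times), NF-Y at 18.8% (1.81 times), NRF1 at 1.83% (7.21 times) and ZBTB33 at 0.554% (7.73 times). At other summits, SP/KLF was found at 4.93% (2.46 times its flank), ETS at 1.85% (1.74 times), NF-Y at 14.9% (1.196 times) and NRF1 at 0.318% (1.65 times), and ZBTB33 in 6 of 25192 windows. Windows at all starts held ETS in 8.94%, NF-Y in 11.8%, NRF1 in 1.32% and ZBTB33 in 0.467%.

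Words of the PROX1 consensus differed from each other. AAGACG was found at 1.67% of promoter summits (1.48 to 1.88%) and 2.02% of their flanks, and at 0.647% of other summits (0.555 to 0.754%) against 1.28% of flanks. AAGGCG was found at 5.82% of promoter summits, 1.37 times its flank, and at 1.35% of other summits, 0.854 times. At promoters its share was 7.88% in the strongest of 3 equal parts by rank, 5.30% in the middle and 4.26% in the weakest, and windows at all starts held it in 5.15%. The homeodomain word TAATTA was at 1.21% of other summits, 0.438 times its flank, and the GATA word GATAAG at 1.54%, 0.520 times. Median GC was 63.4% within 50 bp of promoter summits and 52.5% in their flanks, and 50.5% and 46.5% for other summits. The part of GC in these ratios was not tested.

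**Figure D4:**
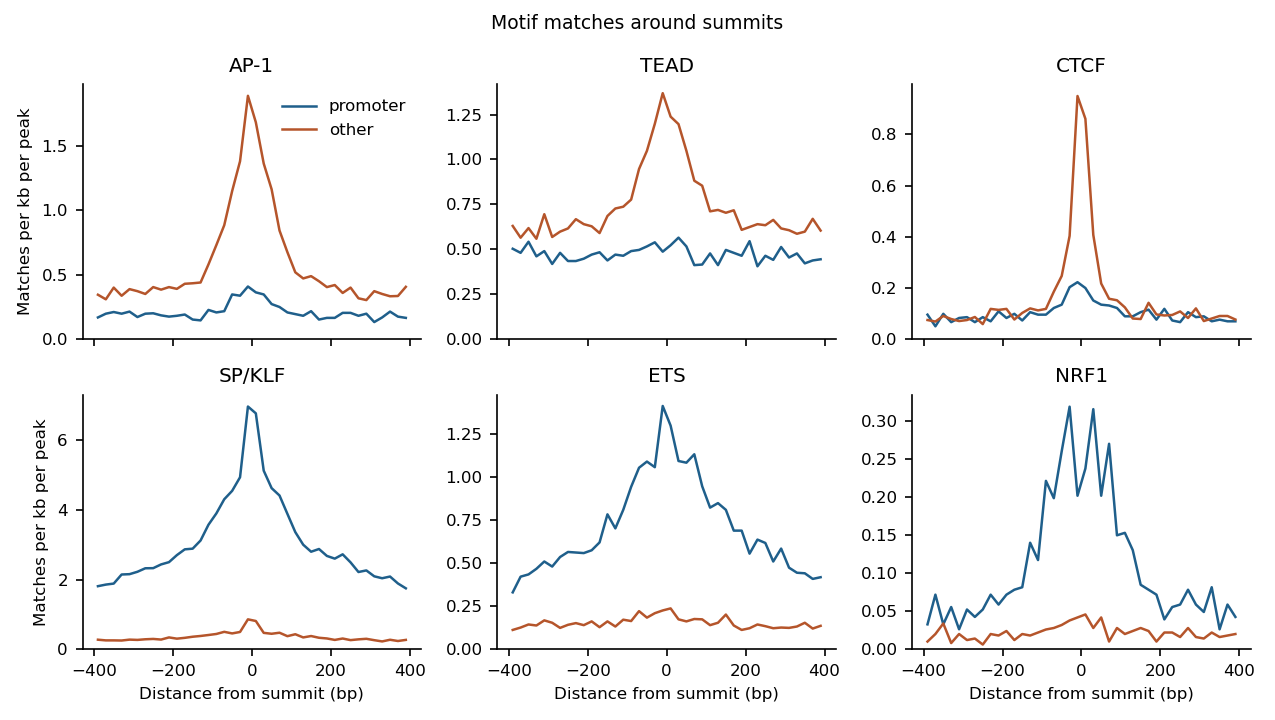
Motif matches per kb per peak by distance from the summit (bp) in bins of 20 bp, for promoter summits (blue) and other summits (orange). AP-1, TEAD and CTCF rise at other summits (13.4%, 10.99% and 5.51% of windows within 50 bp) and SP/KLF, ETS and NRF1 at promoter summits.

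The X chromosome carried few peaks. It had 313, or 1.91 per Mb of sequence, while the autosomes ranged from 12.2 (chromosome 14) to 25.7 (chromosome 11). Of 948 protein-coding genes on it 21.5% (19.0 to 24.2%) had a promoter summit, against 57.4% on the autosomes. Among genes with a CpG-rich start the shares were 51.7% (45.7 to 57.6%) and 90.0%. X peaks were also weaker, with a median −log10 p of 5.55 against 5.97 and a highest value of 8.72 against 15.7. The number of X copies in the cells and the reads per copy were not measured here, and their part in this was not tested. Chromosome Y had 1 peak and no bound gene of 183.

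**Figure D5:**
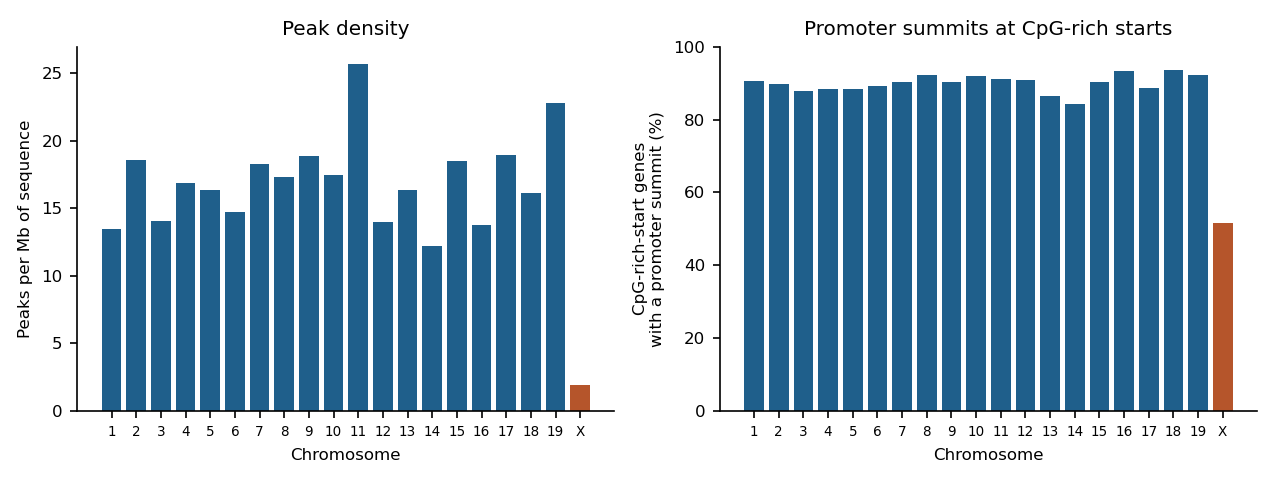
Left, peaks per Mb of sequence on each chromosome; right, share of protein-coding genes with a CpG-rich start that have a promoter summit. Chromosome X (orange) has 1.91 peaks per Mb and 51.7%, below each autosome; chromosome Y, with 1 peak, is left out.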

How the data were processed

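According to their methods and processing notes, the authors trimmed paired reads with Trim Galore 0.6.6, aligned them to mm10 with Bowtie2 2.4.2 and called 1 list over the 3 FLAG samples with Genrich 0.6.1, excluding chrM, duplicates and low alignment qualities, at a lenient q limit. The study describes its binding sites as identified relative to IgG, but the peak calling command in its methods names no control, so how the IgG samples entered the calling was not established here. For its final peaks and target genes the study kept peaks that contain a PROX1 motif, and no such filter was applied here. The deposited columns used were the area (signal), the −log10 p and −log10 q of the summit, and the summit offset; the deposited score is capped at 1000 and was not used for ranking.

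Peaks were matched to GENCODE M21 starts with Python 3.11.15, pandas 2.3.3 and numpy 2.4.6, and to sequence of GRCm38.p6, whose chromosome ends contained all peaks. Protein-coding genes numbered 21853. Functions were tested on simulated data. Shares have 95% Wilson intervals; no test was run, since the list has no values per sample. Of 919 listed symbols 917 were found, older ones through RefSeq synonyms. The members and lists were chosen with earlier results of these data known. Named genes were the nearest to the 10 strongest peaks, the 5 strongest peaks over 10 kb from a start, the 5 longest runs, the 10 genes with most summits, the 5 widest peaks, up to 3 strongest and 5 unbound members of each list, and genes the study followed; the family members, the divergent pair and single Hox genes were chosen after their values were seen, as were further members with a summit just outside the window. Some members of the lists are counted but not reported by name here. Alternatives changed the window, limits on q and area, the starts used, the chaining distance and the motif window.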

Additional observations from a re-analysis of the deposited data

How the results depend on the processing

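The promoter share of 37.8% became 32.3% with a 500 bp window, 44.6% with 2000 bp, 39.3% at a q of at most 0.01, 62.9% for areas of at least 500 and 32.0% with protein-coding starts only. For the 1000 strongest peaks 88.0% became 90.2% ranked by area, 85.4% and 89.9% with windows of 500 and 2000 bp, and 90.2% for 500 peaks. Peaks in runs of 5 or more numbered 1661, and 446 or 5786 with chaining distances of 2.5 or 12.5 kb and 794 at a q of at most 0.01. The share over 10 kb from a start, 31.3%, was 47.1% with protein-coding starts only. AP-1 at other summits, 13.4%, was 7.69% within 25 bp, 20.4% within 100 bp and 14.5% among the stronger ones; its ratio to the flank was 5.03, 4.26 and 3.24 within 25, 50 and 100 bp. Protein-coding genes with a promoter peak stayed between 9874 and 12592 (12098 as reported). They numbered 11894 without the X chromosome, an alternative chosen after seeing the data. List members stayed between 646 and 788 (760 as reported). Some single lists changed more. With a 500 bp window, limb patterning factors fell from 35 to 27 and fat regulators from 22 to 18. For areas of at least 500, limb patterning factors fell to 25 and growth factors and receptors from 30 to 20. Structural matrix genes fell there from 27 to 18, muscle and heart regulators from 13 to 7 and neural regulators from 14 to 8. In all, 19 alternatives for single lists were labelled as moved and 105 as the same. The causes were not tested, beyond the windows and limits themselves changing what is counted. No paired analysis was possible because the list has no values per sample, and leaving out a replicate was not possible for the same reason. Depth and IgG signal per sample are not known from the list, so a gene without a peak was not detected under these limits and is not shown to be unbound. Likewise, a gene called bound has a summit in its promoter window, and binding above IgG or at a PROX1 motif was not shown for it.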
